A study of Mus musculus with 25 samples.

Results

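The clustered protocadherins are a family of cell adhesion genes that lie side by side on mouse chromosome 18. Members were taken as every protein-coding gene of the GENCODE M21 annotation (genome build GRCm38) whose symbol begins with Pcdha, Pcdhb or Pcdhg and whose Ensembl identifier is in the count table. The rule found 57 of 47729 genes: 14 in the alpha, 22 in the beta and 21 in the gamma subcluster. They span 912 kb on the plus strand, between positions 36930184 and 37841873. The material is total RNA, taken from the brain hemispheres of C57BL/6 males and sequenced to count reads per gene. The 25 libraries fall into groups of 5 at each of 2, 9, 15, 24 and 30 months of age, and the labels name no treatment or mutation in any group. The series asks how gene expression differs between these ages.

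Clustered protocadherins sit on the surface of neurons, where they bind copies of themselves on touching membranes. Each neuron uses a small and largely random set of the alternate genes together with the more widely used C-type genes, and the resulting combination lets branches of the same cell recognise and avoid each other. In the alpha and gamma subclusters every gene has its own variable first exon, which codes for the extracellular part and the membrane span, and this exon is spliced to constant exons that all genes of the subcluster share. Beta genes have a single coding exon and no constant part. In the mouse the promoters are chosen with the insulator protein CTCF and the cohesin ring, and DNA methylation and the silencing factor Smchd1 keep unused promoters shut.

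Each library held between 17800113 and 31261121 counts in all. Levels are given as CPM, the counts of a gene per 1000000 counts of its library, after TMM scaling, which sets the libraries to a common total while ignoring the genes that differ most. The 4 ages from 2 to 24 months were fitted together with edgeR's quasi-likelihood test, and p-values were adjusted by Benjamini and Hochberg over all 17472 genes that had enough counts. A member was called when its adjusted p was under 0.05. The libraries of 30 months stood apart: the log2 difference between GC-rich and GC-poor genes, set against the mean of the younger libraries, reached 1.14 to 2.09 in 4 libraries of 30 months (replicates 2 to 5), where replicate 1 had 0.13 and the 20 libraries of the younger ages ranged from -0.25 to 0.15. Comparisons with 30 months are therefore given last, and their fit of all 25 libraries is set beside one with a correction for GC content and one with replicate 1 as the lone library of that age. Among the younger libraries those of 15 months had -0.25 to -0.08 and those of 24 months 0.06 to 0.15. The labels do not say in words that each library is a separate animal, so p-values measure the spread between these libraries.

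What can be counted differs between the subclusters, because alpha genes share exons with each other and gamma genes do as well. Bases covered by no other annotated gene made up 7.0 to 51.4% of the exonic sequence of alpha genes and 0.0 to 68.5% of that of gamma genes, against 36.5 to 100% for beta genes. Whether reads in shared exons were counted is not given in the sources used here. Pcdhga10, which has 0 bases of its own, is listed at 0 counts in every library. Pcdha4, with 404 such bases, had at most 2 counts in a library, and the second of 2 identifiers that M21 calls Pcdha11 (ENSMUSG00000102206) had at most 8. These 3 members were too low to test, so 54 of 57 entered every test. RefSeq places Pcdha10 at the start of the other identifier, ENSMUSG00000007440, so its values are given under the identifier.

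Pcdhgc5, Pcdhgc3 and Pcdhac2, all of the C type, gave the most counts for the length that belongs to them alone. Per kilobase of such sequence, Pcdhgc5 had 21.1 CPM at 24 months and 24.5 CPM at 2 months. Pcdhgc3 had 16.2 CPM per kilobase at 24 months and 15.5 at 2 months, and Pcdhac2 had 12.8 at 24 months and 14.6 at 2 months. The alternate genes lay below these at both ages. The highest of them was Pcdhga6 at 24 months, with 8.48 CPM per kilobase, and Pcdhga11 at 2 months, with 8.72. Beta genes ran lower, up to 7.35 CPM per kilobase for Pcdhb9 at 24 months and 4.46 for Pcdhb17 at 2 months. Of the tested members, Pcdhb1 was lowest per kilobase, at 0.303 CPM at 24 months and 0.0862 at 2 months. The median coefficient of variation of the 54 tested members within an age was 10.8% at 2, 9.36% at 9, 7.33% at 15, 9.12% at 24 and 15.6% at 30 months, where counting error alone gives 8.15, 7.55, 7.64, 6.78 and 6.98%.

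At 24 months the members differed from 2 months in both directions, with counts that differed between the subclusters. Of the 54 tested members 19 were higher and 9 lower at 24 than at 2 months, where 11.02% of all genes tested were higher and 11.7% lower. Of beta genes 12 of 22 were higher and 2 lower, with a median log2 fold change of 0.36, against a median of 0.00 over all genes tested. Of gamma genes 7 of 20 were higher and 3 lower, with a median of 0.13. Of alpha genes none of 12 was higher and 4 were lower, with a median of -0.09. Of the 5 C-type genes, which close the alpha and gamma subclusters, 4 were lower and none higher, with a median of -0.21. The subclusters were not tested against each other. The 5 libraries of 24 months lay wholly above the 5 of 2 months for 12 members and wholly below for 4, which was the case for 7.12% and 7.54% of all genes tested. All these counts of higher members and higher beta genes include Pcdhb1. That gene had enough counts to be tested only through the older ages.

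**Figure D1:**
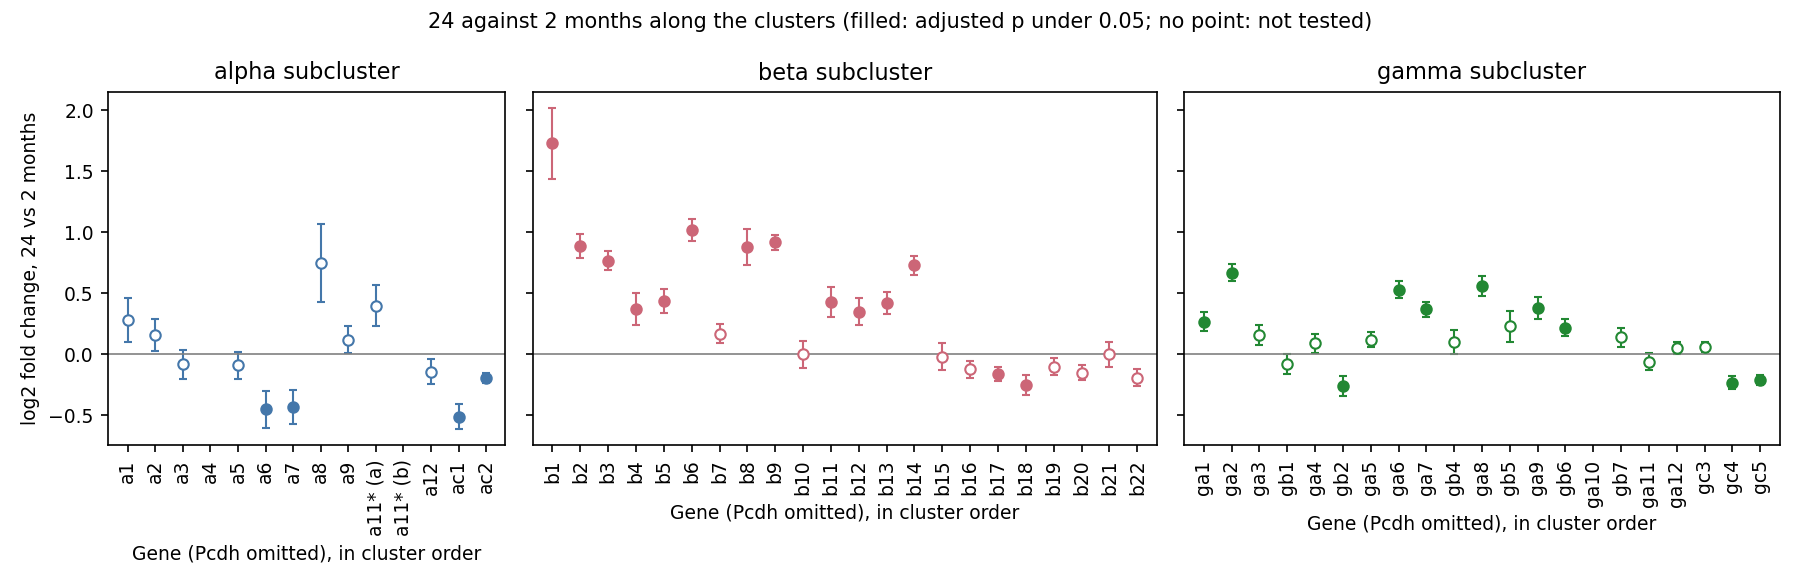
Log2 fold change of each tested member at 24 against 2 months (y axis) in the order of the genes along chromosome 18 (x axis), one panel per subcluster. Bars are standard errors from the edgeR fit, filled points passed an adjusted p of 0.05, the 3 members without a point were not tested, and a11* (a) and (b) are ENSMUSG00000007440 and ENSMUSG00000102206. In the beta panel the filled points with a positive fold change are all at its left, between Pcdhb1 and Pcdhb14, and 4 of the 5 genes named c lie below 0.

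The largest fold changes of called members lay in the beta subcluster, in the stretch from Pcdhb1 to Pcdhb14. Pcdhb9 (ENSMUSG00000051242, chromosome 18, 37400855 to 37403909) had 21.3, 23.5, 21.9, 22.03 and 23.6 CPM at 24 months, against 12.5, 12.2, 11.2, 12.1 and 11.6 CPM at 2 months. Every library of 24 months lay far above every library of 2 months. The mean was 22.4 ± 1.04 CPM at 24 months and 11.9 ± 0.511 CPM at 2 months (SD, n = 5 each; log2 fold change 0.92, SE 0.06, adjusted p = 4.92e-12). Pcdhb6 (ENSMUSG00000051678, chromosome 18, 37333921 to 37337674) had 7.27, 7.88, 6.75, 7.49 and 7.36 CPM at 24 months, against 4.20, 3.32, 3.66, 3.54 and 3.32 CPM at 2 months. The lowest older library again exceeded the highest younger one, and the fold change in CPM was 2.03 (log2 fold change 1.02, SE 0.09, adjusted p = 9.09e-09). Pcdhb3 (ENSMUSG00000045498, chromosome 18, 37300799 to 37304585) had 11.04, 12.7, 11.4, 11.2 and 13.2 CPM at 24 months and 7.77, 7.25, 6.26, 6.69 and 7.06 CPM at 2 months. Its groups did not overlap either (log2 fold change 0.77, SE 0.08, adjusted p = 1.22e-07).

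A further 4 genes of this stretch were higher at 24 months in every library. Pcdhb2 had 6.85, 8.61, 5.99, 6.62 and 6.86 CPM at 24 months, against 4.01, 4.03, 3.73, 3.66 and 3.32 CPM at 2 months, with no overlap (log2 fold change 0.89, SE 0.10, adjusted p = 2.48e-07). Pcdhb8 had 10.04, 9.78, 8.62, 7.97 and 10.3 CPM at 24 months and 4.54, 5.87, 5.23, 5.57 and 4.30 CPM at 2 months, also without overlap (log2 fold change 0.88, SE 0.15, adjusted p = 0.000198). Its lowest older library stood well clear of the highest younger one. Pcdhb14 had 14.5, 15.5, 14.4, 14.6 and 17.3 CPM at 24 months, against 10.1, 7.30, 9.67, 8.60 and 10.2 CPM at 2 months (log2 fold change 0.73, SE 0.08, adjusted p = 7.6e-08). The groups were again apart, with replicate 5 the highest of 24 months. Pcdhb1, the first and least abundant beta gene, had 0.658, 0.991, 0.657, 1.04 and 0.566 CPM at 24 months and 0.244, 0.255, 0.289, 0.225 and 0.102 CPM at 2 months (log2 fold change 1.73, SE 0.29, adjusted p = 8.28e-05). It reached the level that the filter asks for, 0.424 CPM, in 5 of 5 libraries of 24 months and in 0 of 5 of 2 months, so it was tested only because it was higher at the older ages.

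The remaining beta genes of this stretch that were called had smaller differences. Pcdhb12 had 3.77, 4.005, 3.63, 3.57 and 3.76 CPM at 24 months, against 3.52, 2.399, 3.15, 2.59 and 2.97 CPM at 2 months (log2 fold change 0.35, SE 0.11, adjusted p = 0.0178). Its groups did not overlap, but the 2 closest libraries were nearly level, and the call was lost without replicate 2 of 2 months (adjusted p = 0.0636). Pcdhb5 had 8.41, 7.62, 6.89, 9.10 and 6.50 CPM at 24 months and 5.91, 6.07, 4.56, 6.64 and 5.52 CPM at 2 months (log2 fold change 0.44, SE 0.10, adjusted p = 0.00172). Pcdhb11 had 7.27, 8.27, 8.79, 7.88 and 5.73 CPM at 24 months and 6.401, 5.51, 4.69, 7.37 and 4.40 CPM at 2 months (log2 fold change 0.43, SE 0.12, adjusted p = 0.00958). Pcdhb13 had 10.3, 8.27, 9.03, 7.31 and 8.93 CPM at 24 months and 7.33, 6.84, 6.36, 5.34 and 6.96 CPM at 2 months (log2 fold change 0.42, SE 0.09, adjusted p = 0.000694). In each of these 3 genes at least the lowest older library fell among the younger ones, so the groups overlapped. Pcdhb4 had 3.98, 5.30, 3.60, 3.92 and 4.33 CPM at 24 months and 3.03, 3.62, 2.50, 3.09 and 4.19 CPM at 2 months, overlapping, with replicate 2 the highest of 24 months (log2 fold change 0.37, SE 0.13, adjusted p = 0.0316). The call of Pcdhb4 was lost without replicates 2 or 5 of 24 months (adjusted p = 0.113 and 0.0589) and without replicates 1, 3 or 4 of 2 months (adjusted p = 0.06, 0.132 and 0.0609). Pcdhb7 and Pcdhb10 were not called, with log2 fold changes of 0.17 (SE 0.08, adjusted p = 0.143) and -0.00 (SE 0.11, adjusted p = 0.983).

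Past Pcdhb14 no beta gene was higher at 24 months. Of the 14 genes from Pcdhb1 to Pcdhb14, 12 were higher and none lower, with a median log2 fold change of 0.58. These 12 include Pcdhb1, which was tested only because it was higher at the older ages. Of the 8 genes from Pcdhb15 to Pcdhb22, none was higher and 2 were lower, with a median of -0.14. This division was drawn after the values were seen and was not tested. With the GC correction 12 of the 22 beta genes were higher and 0 lower. Pcdhb17, the member of this stretch with the most counts per kilobase, had 19.7, 18.3, 18.3, 18.3 and 17.99 CPM at 24 months, against 23.0, 20.1, 18.5, 20.6 and 21.7 CPM at 2 months (log2 fold change -0.16, SE 0.06, adjusted p = 0.0366). Replicates 2 to 5 of 24 months lay below every library of 2 months, and replicate 1 lay within the younger range. Pcdhb18 had 10.97, 9.39, 9.48, 9.06 and 9.39 CPM at 24 months and 12.9, 13.0, 10.4, 10.3 and 11.2 CPM at 2 months, with replicate 1 of 24 months inside the younger range (log2 fold change -0.25, SE 0.08, adjusted p = 0.0284). Both calls were close to the threshold. That of Pcdhb17 was lost without replicates 2, 3, 4 or 5 of 24 months (adjusted p = 0.0622, 0.0724, 0.0609 and 0.0785) and without replicates 1, 4 or 5 of 2 months (adjusted p = 0.124, 0.0644 and 0.0947). That of Pcdhb18 was lost without replicates 2, 3, 4 or 5 of 24 months (adjusted p = 0.0531, 0.0594, 0.0603 and 0.0574) and without replicates 1 or 2 of 2 months (adjusted p = 0.0787 and 0.091). The other 6 genes had log2 fold changes between -0.19 for Pcdhb22 (SE 0.07, adjusted p = 0.0646) and 0.00 for Pcdhb21 (SE 0.10, adjusted p = 0.983).

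**Figure D2:**
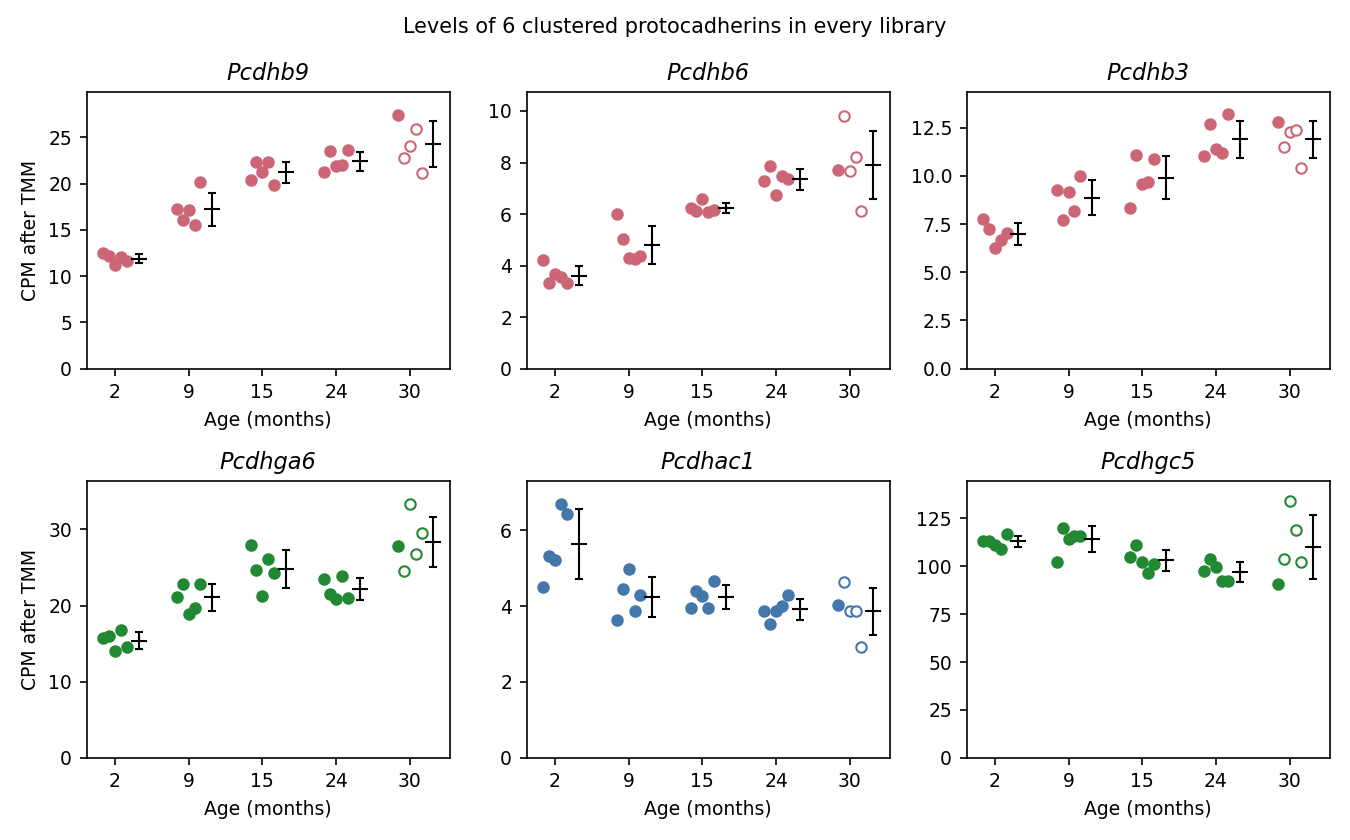
Levels in CPM after TMM (y axis, from 0) of 6 members in every library by age in months (x axis): 3 beta genes in red, a gamma A gene in green, Pcdhac1 in blue and Pcdhgc5 in green. Open circles are replicates 2 to 5 of 30 months, and the black dash and bar beside each age are the mean and SD of its 5 libraries. Pcdhb9 has means of 11.9, 17.2, 21.2, 22.4 and 24.3 CPM from 2 to 30 months, while Pcdhgc5 has 113 CPM at 2 and 97.2 CPM at 24 months.

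In the gamma subcluster, A-type and B-type genes alternate along the chromosome, and the 3 types were not tested against each other. Of 11 tested gamma A genes 6 were higher at 24 months and none lower, with a median log2 fold change of 0.27. Pcdhga2 had 21.9, 22.1, 18.6, 20.2 and 17.7 CPM at 24 months, against 14.02, 11.8, 11.6, 12.3 and 13.6 CPM at 2 months (log2 fold change 0.67, SE 0.07, adjusted p = 5.94e-08). Pcdhga6 had 23.5, 21.5, 20.9, 23.9 and 20.98 CPM at 24 months and 15.7, 15.98, 14.03, 16.8 and 14.5 CPM at 2 months (log2 fold change 0.53, SE 0.07, adjusted p = 2.05e-06). Pcdhga8 had 13.3, 14.7, 12.9, 12.2 and 13.0 CPM at 24 months and 7.57, 9.19, 10.4, 7.65 and 9.61 CPM at 2 months (log2 fold change 0.56, SE 0.08, adjusted p = 1.24e-05). In these 3 genes every older library was above every younger one. Pcdhga7 had 20.8, 20.4, 19.8, 19.5 and 18.9 CPM at 24 months and 13.9, 15.4, 15.1, 15.2 and 17.1 CPM at 2 months, again without overlap (log2 fold change 0.37, SE 0.06, adjusted p = 5.55e-05). Pcdhga9 had 13.0, 13.8, 11.6, 13.0 and 10.99 CPM at 24 months and 7.43, 8.58, 11.7, 9.17 and 10.5 CPM at 2 months, with replicate 3 of 2 months inside the older range (log2 fold change 0.38, SE 0.09, adjusted p = 0.00444). Pcdhga1, the first gene of the subcluster, had 8.97, 8.44, 7.30, 7.58 and 7.76 CPM at 24 months and 6.16, 6.43, 6.23, 7.03 and 7.42 CPM at 2 months, overlapping (log2 fold change 0.27, SE 0.08, adjusted p = 0.0173). Its call was lost without replicate 1 of 24 months (adjusted p = 0.0609) and without replicate 3 of 2 months (adjusted p = 0.0534). The 5 gamma A genes not called had log2 fold changes between -0.06 for Pcdhga11 and 0.16 for Pcdhga3.

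Of 6 gamma B genes 1 was higher and 1 lower. Pcdhgb6 had 16.8, 15.2, 13.8, 14.8 and 14.3 CPM at 24 months, against 12.1, 11.7, 12.3, 14.2 and 14.2 CPM at 2 months, overlapping in the 2 highest younger libraries (log2 fold change 0.22, SE 0.07, adjusted p = 0.0177). Pcdhgb2 had 6.89, 5.99, 6.05, 6.44 and 7.36 CPM at 24 months and 8.26, 7.71, 7.64, 8.55 and 7.31 CPM at 2 months, where replicate 5 of each age fell in the range of the other (log2 fold change -0.26, SE 0.08, adjusted p = 0.0198). Leaving out certain single libraries ended both calls. For Pcdhgb6 the adjusted p was 0.0696 without replicate 1 of 24 months, and 0.0561 and 0.0507 without replicates 2 and 3 of 2 months. For Pcdhgb2 it was 0.0587 without replicate 3 of 24 months and 0.0582 without replicate 4 of 2 months.

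The C-type genes went mostly the other way. Pcdhac1 had 3.88, 3.53, 3.88, 4.01 and 4.30 CPM at 24 months, against 4.50, 5.31, 5.20, 6.69 and 6.44 CPM at 2 months, with no overlap (log2 fold change -0.51, SE 0.10, adjusted p = 0.000672). Pcdhac2, which serotonergic axons of the mouse need to spread evenly over their targets, had 39.8, 37.9, 37.9, 38.6 and 40.2 CPM at 24 months and 42.9, 41.5, 45.8, 46.1 and 44.8 CPM at 2 months, again without overlap (log2 fold change -0.19, SE 0.04, adjusted p = 0.000479). The difference was small, and the narrow spread of both ages set it apart. Pcdhgc5, a partner of inhibitory receptors at synapses and the member with the highest level, had 97.6, 104, 99.8, 92.3 and 92.03 CPM at 24 months, against 113, 113, 111, 109 and 117 CPM at 2 months (log2 fold change -0.21, SE 0.04, adjusted p = 0.000308). Pcdhgc4, on which the survival of many mouse neurons depends, had 16.1, 16.6, 15.4, 15.8 and 16.1 CPM at 24 months and 17.3, 20.2, 19.1, 19.8 and 17.2 CPM at 2 months (log2 fold change -0.23, SE 0.05, adjusted p = 0.00223). Both were lower in every library of 24 months. Pcdhgc3, which binds the Wnt pathway scaffold Axin1 and promotes branching of mouse dendrites, was not called: it had 31.5, 30.1, 29.3, 28.4 and 28.2 CPM at 24 months and 25.4, 29.7, 28.2, 29.9 and 28.4 CPM at 2 months, overlapping (log2 fold change 0.06, SE 0.04, adjusted p = 0.321). The C-type genes of the gamma subcluster share their constant exons with the gamma A genes, so only the bases of their own can tell them apart.

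Among the alternate alpha genes the called members were low in abundance. Pcdha6 had 2.56, 1.64, 2.56, 2.44 and 2.66 CPM at 24 months, against 3.66, 2.65, 3.05, 3.77 and 3.27 CPM at 2 months (log2 fold change -0.45, SE 0.15, adjusted p = 0.0234). Its groups touched at replicate 5 of 24 months and replicate 2 of 2 months, and replicate 2 of 24 months was far below the rest. Pcdha7 had 2.08, 2.41, 2.04, 2.09 and 2.60 CPM at 24 months and 3.62, 3.32, 3.05, 2.76 and 2.35 CPM at 2 months, overlapping at replicate 5 of 2 months (log2 fold change -0.43, SE 0.14, adjusted p = 0.0229). Of the 50-base words of Pcdha7 outside the constant exons, 22.63% occur in another member, the highest share of any member, so reads of these genes could be split between copies. The call of Pcdha6 was lost without replicate 2 of 24 months (adjusted p = 0.0766) and without replicates 1 or 4 of 2 months (adjusted p = 0.0525 and 0.067). The call of Pcdha7 was lost without replicates 1 or 3 of 24 months (adjusted p = 0.0536 and 0.0599) and without replicates 1 or 2 of 2 months (adjusted p = 0.0662 and 0.0541). Pcdha12, the most abundant alternate alpha gene per kilobase, was not called, with 6.02, 6.29, 5.57, 4.83 and 6.03 CPM at 24 months and 4.69, 6.89, 6.65, 5.91 and 7.47 CPM at 2 months (log2 fold change -0.14, SE 0.10, adjusted p = 0.336). The 7 other alternate genes tested were not called, with log2 fold changes from -0.09 for Pcdha5 to 0.75 for Pcdha8 (SE 0.32, adjusted p = 0.0929).

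The differences were already present in part at 9 months. Of the 54 tested members 11 were higher and 1 lower at 9 than at 2 months, where 7.92% of all genes tested were higher and 6.96% lower. Replicate 1 of 9 months had 40.6 CPM summed over choroid plexus markers, where the other libraries of that age had 515 to 562 CPM. Without that library 11 members were higher and 2 lower at 9 months. At 15 against 2 months 17 were higher and 2 lower, where the shares over all genes were 6.101% and 6.95%. These comparisons and that of 24 months share the 2-month libraries. Their counts of higher members include Pcdhb1, which was tested only because it was higher at the older ages. Pcdhb9 had 17.2, 16.1, 17.1, 15.5 and 20.2 CPM at 9 months, all above the 2-month libraries (log2 fold change 0.53, SE 0.06, adjusted p = 1.23e-06), and 20.4, 22.3, 21.2, 22.3 and 19.8 CPM at 15 months (0.84, SE 0.06, adjusted p = 1.81e-10). Pcdhb6 had 6.00, 5.04, 4.29, 4.24 and 4.39 CPM at 9 months (0.41, SE 0.10, adjusted p = 0.00464) and 6.25, 6.12, 6.57, 6.07 and 6.17 CPM at 15 months (0.79, SE 0.10, adjusted p = 2.96e-06). For both genes every library of 9 and of 15 months exceeded every library of 2 months. Pcdhga6 had 21.1, 22.8, 18.9, 19.7 and 22.8 CPM at 9 months (0.46, SE 0.07, adjusted p = 4.52e-05) and 27.9, 24.6, 21.3, 26.1 and 24.3 CPM at 15 months (0.70, SE 0.07, adjusted p = 9.18e-08). Its mean was highest at 15 months among the 4 younger ages, at 24.8 ± 2.44 CPM (SD, n = 5), but 24 months did not differ from 15 months past the threshold (-0.16, SE 0.06, adjusted p = 0.0581).

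Also higher at 9 than at 2 months were Pcdhb1, Pcdhb2, Pcdhb3, Pcdhb14, Pcdhga2, Pcdhga5, Pcdhga8 and the alpha gene ENSMUSG00000007440, with log2 fold changes from 0.22 for Pcdhga5 (adjusted p = 0.0195) to 0.60 for the alpha gene, apart from Pcdhb1. Pcdhb1 had 1.20, but it reached the level of the filter in 0 of 5 libraries of 2 months and 5 of 5 of 9 months, so it was tested only through the older ages. The alpha gene (log2 fold change 0.60, SE 0.17, adjusted p = 0.0158) is the only alpha gene called higher in a comparison among the 4 younger ages. Pcdhac1 was the member that was lower at 9 months, with 3.64, 4.44, 4.97, 3.86 and 4.29 CPM (-0.40, SE 0.11, adjusted p = 0.00938). It stayed near that level at 15 months, with 3.95, 4.39, 4.26, 3.95 and 4.66 CPM (-0.39, SE 0.11, adjusted p = 0.0135). Pcdhgc5 was first called at 15 months. It had 102, 120, 114, 116 and 116 CPM at 9 months (0.01, SE 0.04, adjusted p = 0.901), and 105, 111, 102, 96.4 and 101 CPM at 15 months (-0.12, SE 0.04, adjusted p = 0.0453). With the GC correction no gamma gene was called lower at 15 than at 2 months, so the call of Pcdhgc5 was lost. Also called higher at 15 than at 2 months, and not at 9, were Pcdhb5, Pcdhb8, Pcdhb12, Pcdhb19, Pcdhga3, Pcdhga7 and Pcdhgb6, with log2 fold changes from 0.22 for Pcdhb19 (adjusted p = 0.0253) to 0.54 for Pcdhb8 (adjusted p = 0.022).

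Between neighbouring ages fewer members passed. At 15 against 9 months 5 were higher and 1 lower, where 4.45% of all genes were higher and 6.45% lower: Pcdhb6 (log2 fold change 0.38), Pcdhb9 (0.31), Pcdhb12 (0.37), Pcdhga6 (0.24) and Pcdhga7 (0.20) were higher and Pcdhgc5 (-0.13) lower. The count of 6 became 2 without replicate 4 of 15 months, and 3 without replicate 3 or without replicate 4 of 9 months. With the GC correction 5 were higher and 0 lower, so the call of Pcdhgc5 was lost. At 24 against 15 months 4 were higher and 3 lower, where 11.9% of all genes were higher and 12.2% lower: Pcdhb3 (0.25), Pcdhb13 (0.23), Pcdhb14 (0.21) and Pcdhgc3 (0.14) were higher, and Pcdha12 (-0.28), Pcdhb16 (-0.20) and Pcdhb19 (-0.32) lower. The count of 7 became 4 without replicate 5 of 24 months, and 4, 3 and 4 without replicates 1, 2 and 5 of 15 months. With the GC correction 4 of these 7 calls were kept. Those of Pcdhgc3 and Pcdha12 were among the calls lost, and 2 C-type genes were then called lower.

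A line through the ages from 2 to 24 months was fitted on the log2 scale. Of the 54 tested members 18 had a rising and 7 a falling line, where 8.44% of all genes tested had a rising and 8.32% a falling one. Pcdhb6 gained 0.0461 log2 units per month (SE 0.0044, adjusted p = 1.23e-07), Pcdhb9 0.0397 (SE 0.0043, adjusted p = 1.24e-06) and Pcdhb3 0.0338 (SE 0.0037, adjusted p = 8.44e-07). Pcdhb1, tested only through the ages at which it was higher, had a slope of 0.0636 (SE 0.0127). In the gamma subcluster Pcdhga2 gained 0.0282 per month (SE 0.0040, adjusted p = 2.95e-05). Falling lines belonged to Pcdha6, Pcdha7, Pcdhac1, Pcdhac2, Pcdhgb2, Pcdhgc4 and Pcdhgc5, from -0.0213 per month for Pcdha6 (SE 0.0064, adjusted p = 0.0215) and Pcdhac1 (SE 0.0050, adjusted p = 0.00445) to -0.0086 for Pcdhac2 (SE 0.0017, adjusted p = 0.00091).

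**Figure D3:**
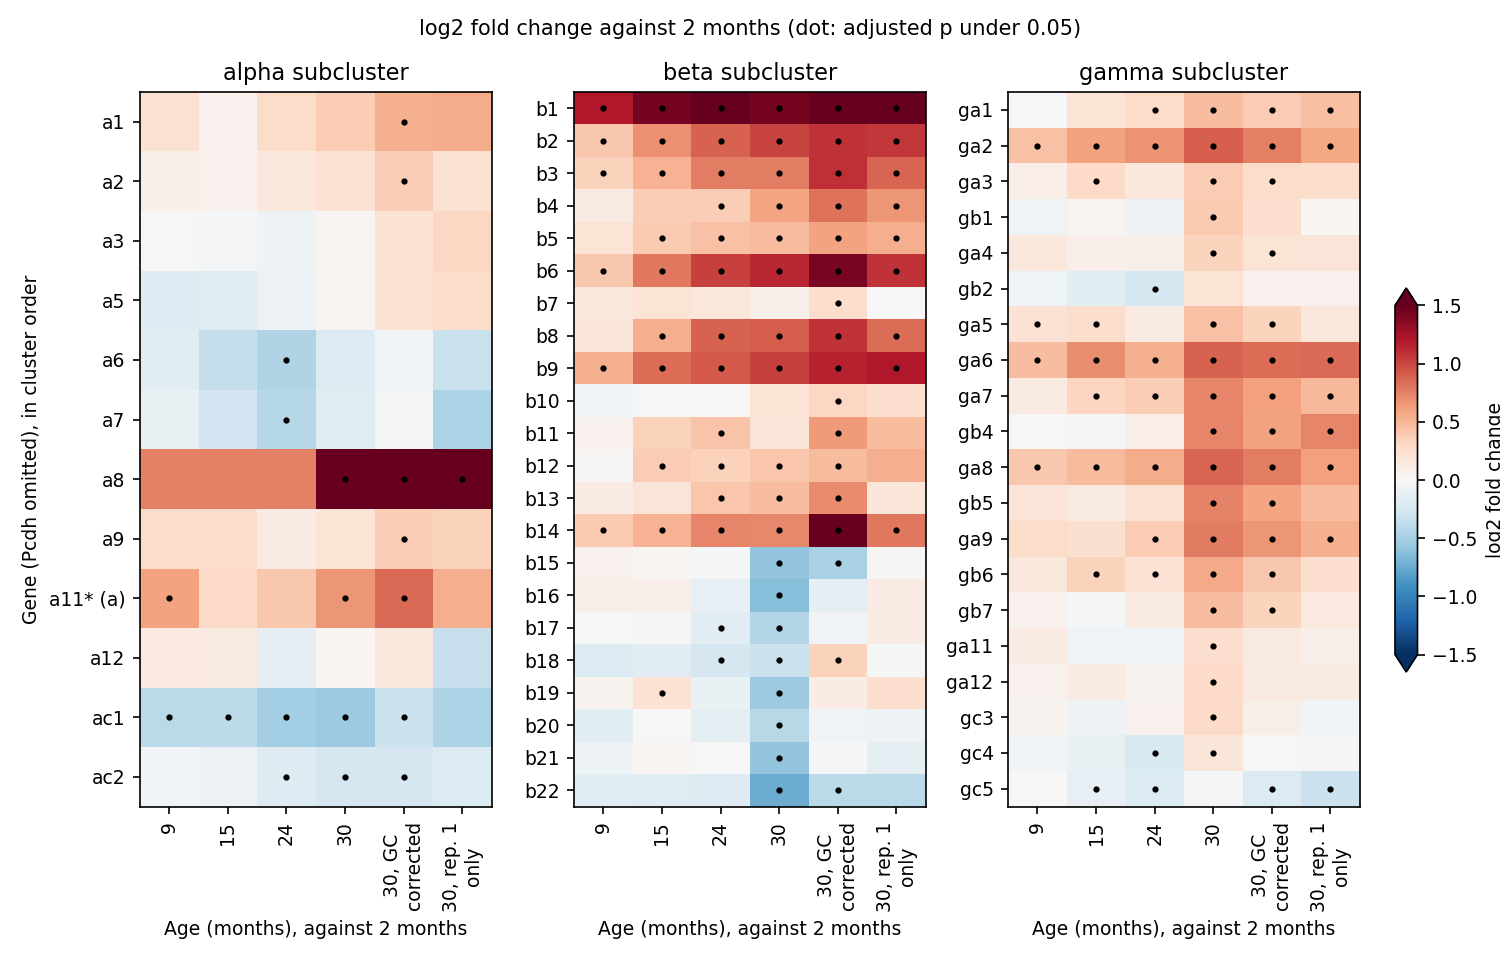
Log2 fold change against 2 months (colour, from -1.5 to 1.5, values beyond drawn at the end of the scale) of the tested members in cluster order (rows) at 9, 15, 24 and 30 months, at 30 months with the GC correction, and with replicate 1 as the only library of 30 months (columns). Dots mark an adjusted p under 0.05. Pcdhb9 has 0.53, 0.84, 0.92 and 1.03 from 9 to 30 months, and Pcdhb15 to Pcdhb22 are blue with dots in the uncorrected 30-month column, where all 8 are lower.

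At 30 months the picture depended on the 4 libraries that stood apart. In the fit of all 25 libraries 31 members were higher and 10 lower at 30 than at 2 months, where 28.5% of all 17799 genes tested were higher and 29.5% lower. With the GC correction 33 were higher and 5 lower, where the shares over all genes were 25.7% and 20.04%. With replicate 1 as the lone library of 30 months, assumed to vary like the other ages, 17 were higher and 1 lower, where the shares were 5.19% and 3.34%. That last fit tested 19208 genes, because the filter asks for enough counts in only as many libraries as the smallest group holds. Its shares are therefore over a wider set of genes than the shares before them. GC content differs between the subclusters: the longest transcripts of gamma genes have a GC fraction of 0.510 to 0.554, against 0.391 to 0.490 for beta genes and 0.465 to 0.498 for alpha genes. For alpha and gamma genes this fraction includes the constant exons that they share, and the correction used the same fraction. The GC content of the bases that belong to each gene alone was not examined. GC content also differs along the beta genes. Pcdhb16 to Pcdhb22 have 0.412 to 0.450 and Pcdhb15 has 0.483. Pcdhb1 to Pcdhb13 have 0.453 to 0.490 apart from Pcdhb11 (0.438), and Pcdhb14 has 0.391. Position and GC content of the beta genes were not separated. Differences of the 4 libraries that stood apart, other than in GC content, were not tested.

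Genes of Pcdhb1 to Pcdhb14 were higher in each of these fits. This stretch was drawn from the values of 24 against 2 months, and these fits use the same libraries of 2 months. The fits are therefore not a separate test of the stretch. It also includes Pcdhb1, which was tested only through the older ages. Of the 14 genes 11 were higher at 30 than at 2 months and none lower, 14 and 0 with the GC correction, and 9 and 0 with replicate 1 alone. Pcdhb9 had 27.4, 22.8, 24.1, 25.9 and 21.1 CPM at 30 months, with replicate 1 the highest and no overlap with 2 months (log2 fold change 1.03, SE 0.07, adjusted p = 5.99e-10). It was 1.16 with the GC correction (SE 0.06, adjusted p = 1.47e-12) and 1.20 with replicate 1 alone (SE 0.09, adjusted p = 3.25e-10). Pcdhb6 had 7.70, 9.80, 7.67, 8.22 and 6.12 CPM, spread more widely than at any younger age (1.13, SE 0.11, adjusted p = 9.05e-08; 1.42 with the correction, adjusted p = 1.93e-10; 1.08 with replicate 1 alone, adjusted p = 9.39e-06). Pcdhb3 had 12.8, 11.5, 12.3, 12.4 and 10.4 CPM, all above the 2-month libraries (0.77, SE 0.09, adjusted p = 7.86e-07; 1.10 with the correction, adjusted p = 1.2e-09; 0.87 with replicate 1 alone, adjusted p = 4.16e-05). Pcdhb14, which has the lowest GC fraction of all members (0.391), moved most with the correction among these 14: its log2 fold change was 0.72 without it (SE 0.09, adjusted p = 2.53e-06), 1.66 with it (SE 0.14, adjusted p = 2.69e-09) and 0.79 with replicate 1 alone (SE 0.12, adjusted p = 6.51e-05).

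For Pcdhb15 to Pcdhb22 the values at 30 months depended on the 4 libraries that stood apart. All 8 were lower than at 2 months in the fit of 25 libraries, 2 were lower and 1 higher with the GC correction, and none was called in either direction with replicate 1 alone, where 4 of the 8 log2 fold changes were above 0. Their summed level was 101 CPM in replicate 1 of 30 months and 74.2, 60.4, 65.9 and 47.3 CPM in replicates 2 to 5, against 107, 99.0, 89.2, 96.7 and 108 CPM at 2 months. Pcdhb16 shows the same order, with 14.1, 8.80, 6.74, 8.13 and 3.93 CPM at 30 months. Replicate 1 lay among the younger libraries and the others below all of them. The fits without and with the correction also parted for Pcdhb18, with a log2 fold change of -0.32 (adjusted p = 0.0145) without and 0.34 (adjusted p = 0.00549) with the correction, and with replicate 1 alone it was -0.03 (adjusted p = 0.937).

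In the gamma subcluster 18 of 20 tested genes were higher at 30 than at 2 months and none lower, 13 and 1 with the GC correction, and 7 and 1 with replicate 1 alone. Pcdhga6 had 27.8, 24.5, 33.3, 26.8 and 29.5 CPM at 30 months (log2 fold change 0.89, SE 0.08, adjusted p = 4.94e-08), and replicate 1 lay within the range of the others. It was 0.84 with the correction (adjusted p = 1.27e-08) and 0.85 with replicate 1 alone (adjusted p = 3.35e-06). Pcdhgb4 had 9.54, 10.3, 10.97, 9.37 and 7.24 CPM at 30 months, and was the 1 member called against 24 months (6.79, 5.77, 6.19, 6.27 and 5.70 CPM) with replicate 1 alone (0.63, adjusted p = 0.0108), where 2.76% of all genes were higher and 1.09% lower. In the fit of all 25 libraries 20 members were higher and 7 lower at 30 than at 24 months, where the shares over all genes were 25.5% and 28.98%. With the GC correction 25 were higher and 2 lower, where the shares were 23.5% and 18.2%. The beta genes turned direction between these fits: none was higher and 7 lower without the correction, and 8 were higher and 2 lower with it. Of the C-type genes Pcdhgc5 had 90.8, 104, 134, 119 and 102 CPM at 30 months, with replicate 1 the lowest. It did not pass against 2 months without the correction (log2 fold change -0.03, SE 0.07, adjusted p = 0.711) and was lower with it (-0.21, SE 0.07, adjusted p = 0.0145) and with replicate 1 alone (-0.32, SE 0.07, adjusted p = 0.00436). Pcdhac1 had 4.02, 4.64, 3.88, 3.86 and 2.91 CPM (-0.54, adjusted p = 0.000424, and -0.32, adjusted p = 0.0197, with the correction). Its call was lost with replicate 1 alone (-0.48, SE 0.19, adjusted p = 0.114). Pcdha8 is the one alpha gene called higher in all 3 fits, with log2 fold changes of 1.51 (adjusted p = 0.000241), 1.66 with the correction (adjusted p = 7.22e-05) and 1.73 with replicate 1 alone (adjusted p = 0.0174). It had 1.88, 1.34, 2.02, 1.42 and 1.36 CPM at 30 months and 0.928, 0.357, 0.514, 0.619 and 0.409 CPM at 2 months. Only 3 of 5 libraries of 2 months reached the filter level of the younger ages, 0.424 CPM, against 5 of 5 at 9, 15 and 24 months. The libraries of 2 months were thus too few to bring Pcdha8 past that filter by themselves. Its lowest count in a library was 7. The counts of higher members at 30 against 2 months include this gene.

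**Figure D4:**
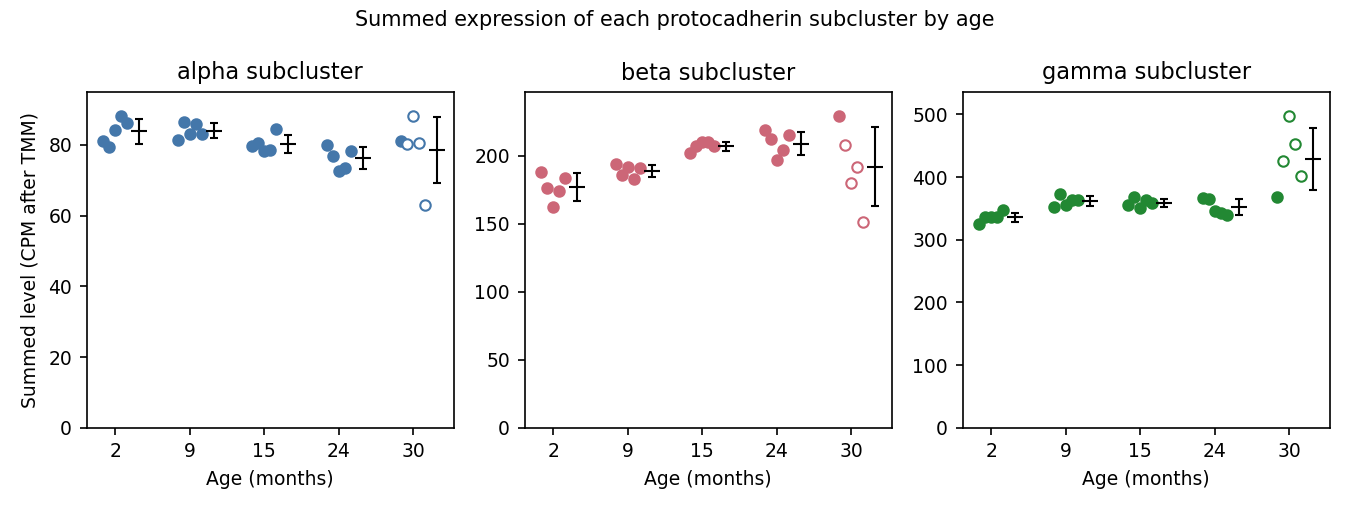
Summed level in CPM after TMM (y axis, from 0) of the alpha, beta and gamma genes in every library by age in months (x axis). Open circles are replicates 2 to 5 of 30 months, and the black dash and bar are the mean and SD of 5 libraries. The beta sum has means of 177, 189, 207 and 209 CPM from 2 to 24 months, while the alpha sum has 83.8, 84.0, 80.3 and 76.3 CPM.

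Summed over each subcluster these changes were small and partly cancelled. The alpha genes together had 83.8 ± 3.55, 84.0 ± 2.15, 80.3 ± 2.52 and 76.3 ± 3.08 CPM at 2, 9, 15 and 24 months (SD, n = 5 each). The beta genes had 177 ± 10.1, 189 ± 4.45, 207 ± 3.44 and 209 ± 8.68 CPM. Every library of 15 and of 24 months exceeded every library of 2 months in the beta sum. The gamma genes had 336 ± 7.33, 362 ± 7.81, 359 ± 6.30 and 352 ± 13.0 CPM. Within the gamma sum the A-type genes had 161 ± 6.35 CPM at 24 months and 130 ± 4.18 CPM at 2 months, and the B-type genes 48.5 ± 2.37 CPM and 46.1 ± 2.28 CPM. The share of the C-type genes in the counts of all members was 35.1 ± 0.756% at 2, 32.8 ± 0.887% at 9, 29.8 ± 0.881% at 15, 29.1 ± 0.738% at 24 and 29.5 ± 1.94% at 30 months. At 30 months it was 26.5% in replicate 1 and 28.6 to 31.1% in replicates 2 to 5, which stood apart in GC content. Within the beta genes, Pcdhb9 made up 10.7 ± 0.579% of the sum at 24 months and 6.74 ± 0.291% at 2 months.

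Lists of genes that work with or resemble the clustered protocadherins were read against the shares over all genes at 24 against 2 months, 11.02% higher and 11.7% lower, and were not tested as lists. Of 13 insulator and cohesin genes none was higher and 2 were lower, the cohesin regulators Pds5b (log2 fold change -0.12, adjusted p = 0.00444) and Mau2 (-0.12, adjusted p = 0.00489). Of 12 genes of silencing and DNA methylation none was higher and 4 were lower. Among these were Tet1, which removes methyl groups from DNA, with 19.7 CPM at 24 and 27.8 CPM at 2 months (-0.51, adjusted p = 9.29e-08), the histone methyltransferase Setdb1 (-0.23, adjusted p = 3.2e-05) and the DNA methyltransferase Dnmt3a (-0.12, adjusted p = 0.00528). Of 18 signalling partners none was higher and 7 were lower, including Marcks (-0.25, adjusted p = 6.18e-07), an actin-linked protein that acts downstream of the gamma proteins in mouse neurons, and Nckap1 (-0.14, adjusted p = 0.000238), a part of the WAVE complex that alpha proteins bind. Of 12 protocadherins outside the clusters none was higher and 7 were lower, with a median of -0.19, led by Pcdh10 (-0.23, adjusted p = 3.34e-05). Of 22 other cadherins of the brain 2 were higher and 10 lower.

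Markers of cell types went in both directions at 24 months. Of 12 neuron markers 1 was higher and 3 lower at 24 months, with summed levels of 9750 to 10400 CPM at 24 months and 9940 to 10600 CPM at 2 months. Of 10 markers of immature neurons 1 was higher and 6 lower, with sums of 241 to 261 CPM at 24 months and 330 to 345 CPM at 2 months. Of 8 astrocyte markers 4 were higher, with sums of 5530 to 6100 CPM at 24 months and 5230 to 5610 CPM at 2 months. Of 8 oligodendrocyte markers 1 was higher, the myelin gene Mbp (log2 fold change 0.25, adjusted p = 0.000125), and 2 were lower, Mog (-0.32, adjusted p = 0.00065) and Cldn11 (-0.33, adjusted p = 0.000632), with sums of 6000 to 6430 CPM at 24 months and 5100 to 6370 CPM at 2 months. Of 7 markers of excitatory neurons 1 was lower, of 8 of inhibitory neurons 1 was higher, and of 5 of endothelium 1 was higher and 1 lower. The 5 tested markers of serotonergic neurons had log2 fold changes from -0.13 to 0.15 and the 6 of the choroid plexus from -0.14 to 0.38. Of 8 microglia markers 6 were higher, with sums of 405 to 452 CPM at 24 months and 348 to 426 CPM at 2 months. Of 9 genes listed for liver 1 was higher, Trf (log2 fold change 0.55, adjusted p = 1.3e-06). Trf and Ttr, which is also in the choroid plexus list, were left out of the liver signal that served as a covariate. That signal was built from Alb, Apoa1, Apoa2, Serpina1a, Serpina1c, Fgb and Ahsg. These genes had log2 fold changes from 1.35 to 1.82, and none was called (adjusted p from 0.0983 to 0.25). The liver gene Alb had 38.5 to 171 CPM at 24 months and 0 to 128 CPM at 2 months, and was not called (1.76, adjusted p = 0.187). With the liver signal as a covariate 16 members were higher and 5 lower at 24 months. The part of the other cell types in the members' values was not tested, and in whole tissue fewer cells of a type and less RNA per cell cannot be told apart.

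Of 28 tested genes within 500 kb of the members, 3 were higher and 1 lower at 24 than at 2 months, where 11.02% of all genes were higher and 11.7% lower, with a median log2 fold change of -0.01. E230025N22Rik, before the alpha genes, was the most different, with 1.47 CPM at 24 months and 0.595 CPM at 2 months (1.31, SE 0.23, adjusted p = 0.000143). Taf7, a general transcription factor gene between the beta and gamma subclusters, had a log2 fold change of 0.01 (SE 0.07, adjusted p = 0.921).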

How the data were processed

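Per the labels' protocols, libraries were made with the TruSeq RNA kit. Per the submitters' processing notes, the authors used CASAVA 1.7, aligned with STAR 2.4.1d to GRCm38 and counted with featureCounts 1.4.6-p4, and they deposited raw counts per Ensembl gene. The annotation release, the strand setting and the handling of reads in shared exons are not given in the sources used here, so antisense and overlapping genes cannot be told apart from the members. The deposited RPKM table was not used here. Of 47729 genes 47310 matched GENCODE M21, which gave symbols, positions, unique bases and, for the longest transcript of each gene, its GC content.

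The tests used edgeR 4.0.16 in R 4.3.3: filterByExpr, TMM, robust quasi-likelihood fits with a mean per age, two-sided tests and Benjamini-Hochberg adjustment at 0.05. The 20 libraries of 2 to 24 months formed one fit. Comparisons with 30 months used all 25 libraries, then a GC offset per gene and library (lowess, span 0.3, over 12875 genes), then the 25 without replicates 2 to 5 of 30 months. SE is the absolute log2 fold change over the square root of F. Between libraries of one age the smallest chi-square per degree of freedom was 1.55, so no pair agreed within counting error.

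Alternatives were other scalings, filters and tools (DESeq2 1.42.0, limma-voom 3.58.1), a GC correction, a liver covariate, all 25 libraries in one fit, and leaving out each library. Members named with every library's value are Pcdhb9, Pcdhb6, Pcdhb3, the C-type genes, those called for 24 against 2 months, and the 2 per subcluster with the highest level per kilobase. Pcdhb16, Pcdhgb4 and Pcdha8 were added at 30 months after their values were seen. Of each other list, up to 3 genes with the smallest p are named. The members and lists were chosen with earlier results of these data known. Replicates were numbered by sample order, which pairs nothing.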

Additional observations from a re-analysis of the deposited data

Results flagged for a closer look

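In 6 of 165 sets of 5 libraries, a member named above had a library whose gap to its nearest neighbour took more than 0.71 of the range of its age, which chance gives in about 1 set in 20. At 24 months Pcdha6 had 1.64 CPM in replicate 2, where the others had 2.44 to 2.66. Pcdhb17 had 19.7 CPM in replicate 1 of 24 months, where the others had 17.99 to 18.3, and Pcdhb18 had 10.97 CPM in the same library, where the others had 9.06 to 9.48. At 30 months Pcdhb2 had 5.20 CPM in replicate 5, where the others had 7.87 to 8.70. Pcdhb8 had 11.9 CPM in replicate 2 of 30 months, where the others had 8.63 to 9.47. Pcdhga2 had 19.0 CPM in replicate 1 of 30 months, where the others, which are the libraries that stand apart in GC content, had 23.9 to 25.6.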

How the results depend on the processing

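No paired analysis was possible because replicates were numbered by sample order, which pairs no libraries across ages. Scaling, filters, DESeq2, limma-voom, the GC correction and the liver covariate kept each total of called members within 1.5 times its value. By direction, the members lower fell to 2 against 7 at 30 against 24 months and to 5 against 10 at 30 against 2 months with the GC correction, and to 5 against 9 at 24 against 2 months and 3 against 7 for the line with the liver covariate; lower counts of 1 or 2 also changed by 1. All scalings moved the median of all genes by less than 0.1. With the GC correction, 15 of the 27 members called at 30 against 24 months and 30 of the 41 at 30 against 2 months kept their call. At 24 against 15 months 4 of 7 kept theirs, though the total stayed at 7. With the 30-month libraries in the same fit as the younger ones the counts were 7 for 9 against 2 months, 10 for 15 against 2 months, 16 for 24 against 2 months, and 38 for the line, which then ran to 30 months. In that edgeR fit they were 0 for 15 against 9 months and 0 for 24 against 15 months, where 8 and 7 members had an unadjusted p under 0.05; DESeq2 and limma-voom on the 20 libraries called 6 each and 6 and 8. The cause was not tested. Of the 16 members called at 24 against 2 months in the edgeR fit of all 25 libraries, 14 were higher and 2 lower. Among the calls lost there were those of the C-type genes Pcdhac2 and Pcdhgc5 (adjusted p = 0.0998 and 0.0848). With replicate 1 as the only library of 30 months, and so fewer libraries, 18 members passed against 2 months and 1 against 24 months. Without each library in turn the counts ran from 11 to 14 for 9 against 2 months, 16 to 20 for 15 against 2, 24 to 28 for 24 against 2, 2 to 7 for 15 against 9, 3 to 9 for 24 against 15, 23 to 27 for the line, 40 to 43 for 30 against 2 and 19 to 27 for 30 against 24 months. The slopes of Pcdhgb2 and Pcdhgc4 became positive, 0.00332 and 0.00273 per month, with 30 months in the line, and that of Pcdhgc3, which had not passed, ran from -4.19e-05 to 0.00228 without each library in turn, lowest without replicate 1 of 24 months. At 24 against 2 months the liver covariate ended the calls of Pcdha6, Pcdha7, Pcdhb12, Pcdhb17, Pcdhb18, Pcdhga1, Pcdhga9 and Pcdhgb6 (adjusted p from 0.0732 to 0.416), and the GC correction those of Pcdhb17 and Pcdhb18 (adjusted p = 0.081 and 0.0659). The call of Pcdhb17 also ended with total counts only, without the filter and with limma-voom (adjusted p = 0.0572, 0.0761 and 0.0562). Depth limits the low members most: Pcdhb1 had 2 to 25 counts per library.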

Other observations

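A long intergenic non-coding RNA gene, 3222401L13Rik (ENSMUSG00000073590, chromosome 18, 37655451 to 37661742, plus strand), ends just before the first gamma gene, Pcdhga1. It was chosen after its values were seen. It had 4.19, 5.25, 4.46, 4.62 and 4.76 CPM at 24 months, against 2.15, 1.79, 2.02, 2.87 and 2.35 CPM at 2 months, and the groups did not overlap (edgeR, log2 fold change 1.07, SE 0.12, adjusted p = 3.82e-07). At 9 months it had 3.78, 2.91, 3.20, 4.001 and 3.87 CPM (log2 fold change against 2 months 0.68, adjusted p = 0.000517), and at 15 months 3.78, 4.67, 3.61, 4.74 and 4.19 CPM (0.93, adjusted p = 1.32e-05). At 30 months replicate 1 had 5.39 CPM and the other 4 had 3.87, 2.87, 3.904 and 1.46 CPM. Whether reads of its neighbours reach this gene was not tested.

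The other genes inside the clusters with enough counts to test, Gm10544, Taf7, Gm26672 and Gm29994, were not called at 24 against 2 months, with log2 fold changes of -0.17, 0.01, -0.57 and -0.14. Pcdhgb8, which M21 lists as a polymorphic pseudogene, had 0 to 8 counts per library and was not tested.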
